A study of Homo sapiens with 24 samples.

Results

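Cultures of HT29 that had received either of 2 growth factors were compared with cultures that had received either vehicle, as a test of a response common to both factors. HT29 is an established epithelial line from a human colorectal adenocarcinoma. All 24 arrays of the series entered: 12 treated (6 given VEGF and 6 given PDGF, each at 100 ng/ml) and 12 vehicle (6 given the VEGF vehicle and 6 the PDGF vehicle), at 24, 48 and 72 h of exposure that followed 24 h of recovery after seeding. Each of the 12 groups had 2 replicates, and the replicate number coincided with the hybridisation day. The 24 arrays therefore fell into 6 blocks, one for each combination of time and replicate number, each with 2 treated and 2 vehicle arrays. Unless another fit is named, blocks were kept apart, so that a treated array was set against vehicle arrays of its own time and day. One cell line, one dose and no untreated cultures without vehicle were available among these arrays, and the labels do not name the vehicles' composition or the isoform of either factor. Whether both replicates of a group were grown as separate cultures is not stated in the labels, so the spread behind each p-value is that between these arrays and may be technical.

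VEGF and PDGF are secreted dimers that act through receptor tyrosine kinases. VEGF signals mainly through KDR and FLT1 on the endothelium of blood vessels, with the neuropilins as co-receptors, and PDGF through PDGFRA and PDGFRB on fibroblasts, pericytes and smooth muscle. Activated receptors of this family feed the MAP kinase cascade, whose transcriptional output includes immediate early genes such as FOS, JUN and EGR1 and feedback inhibitors such as the DUSP phosphatases and Sprouty proteins. The integrated stress response is a separate programme, in which amino acid shortage, endoplasmic reticulum stress or other insults lead to translation of the transcription factor ATF4, which induces DDIT3, ATF3, CHAC1, SESN2, aminoacyl-tRNA synthetases and amino acid transporters.

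RNA was hybridised to Affymetrix arrays, and levels are the deposited log2 values of each probe set. After control probe sets were set aside, 49293 probe sets remained, of which 45064 carry 1 gene symbol in the platform's annotation, covering 18155 genes. Array medians lay between 7.05 and 7.13. As a measure of dim signal, the 95th percentile of the ERCC spike-in probe sets was 6.45, and 39368 probe sets had a mean above it. All 25 probe sets of 10 colon epithelium markers were above that level, with an average over the list of 11.20 to 11.51 on each array. Of 35 probe sets for fibroblast and pericyte markers 12 were above it, with averages of 6.35 to 6.43, and of 19 for endothelial markers 10 were, with averages of 6.48 to 6.58. These averages overlapped between treated and vehicle arrays at each time in all 3 lists. Of the receptors, FLT1 lay below the dim level in all 5 probe sets, at means of 6.08 to 6.39, and PDGFRA lay on either side of it, at 6.33 to 6.50 over 4. PDGFRB, at 6.50 to 6.85 over 3 probe sets, and KDR, at 6.84 and 6.56, lay above it and below the array medians.

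Over all times, no probe set differed between 12 treated and 12 vehicle arrays (0 of 49293, 0%, limma with Benjamini-Hochberg adjustment, threshold 0.05). The lowest adjusted p in limma was 0.734, and 2840 probe sets (5.76%) had an unadjusted p under 0.05, with 2.7% of all on the higher side and 3.06% on the lower. The largest difference in either direction was 0.35 upward and -0.24 downward on the log2 scale, and no probe set reached 1.5-fold. The typical probe set was measured to within ±0.06 (log2, 95% interval), so the intervals bound what a shared response could have been: 93.9% of them lay within 1.1-fold of no change and 49292 of the 49293 within 1.5-fold. These intervals are unadjusted and concern the mean over times. The sign of the difference was the same in all 6 blocks for 2.87% of probe sets.

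The probe sets with the lowest p over all times are given as values, since none was called. SUV39H2, a histone H3 lysine 9 methyltransferase, had the lowest, with vehicle arrays from 6.85 to 7.44 (median 7.05) and treated arrays from 6.66 to 7.26 (median 6.94). Its difference was -0.13 ± 0.02 (log2, SE) with an adjusted limma p of 0.734, and it was negative in each block, from -0.15 to -0.11. REG4, a secreted lectin of enteroendocrine and goblet cells, differed by -0.18 ± 0.04, and TFF3, the trefoil peptide of goblet cells, by -0.18 ± 0.04. G0S2, an inhibitor of the triglyceride lipase ATGL, was on the upper side at 0.25 ± 0.05, with positive differences in all 6 blocks from 0.06 to 0.64. EXOSC2, a subunit of the RNA exosome, stood at -0.12, IFT74, a component of intraflagellar transport, at -0.12, and PRKAA2, a catalytic subunit of AMP-activated kinase, at 0.10. SLA, SLC4A11 and INAFM1 were the other 3 on the upper side, at 0.10, 0.11 and 0.10.

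The times differed in how far their p-values departed from an even spread, as the p-value histograms show. At 24 h the share of probe sets with an unadjusted p under 0.05 was 1.77% (874), and the limma test called 0 (0%), with a lowest adjusted p of 1.00. At 48 h the share was 9.75% (4805) and at 72 h 13.3% (6551). Across probe sets, the VEGF and PDGF differences from their own vehicles correlated at -0.21 (replicate 1) and -0.34 (replicate 2) at 24 h. In the blocks of 48 and 72 h these correlations ran from 0.05 to 0.35. The pooled term averages over both factors, so 0 calls at 24 h do not show that neither factor acted. Whether opposite differences lowered the 24 h share was not tested.

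**Figure D1:**
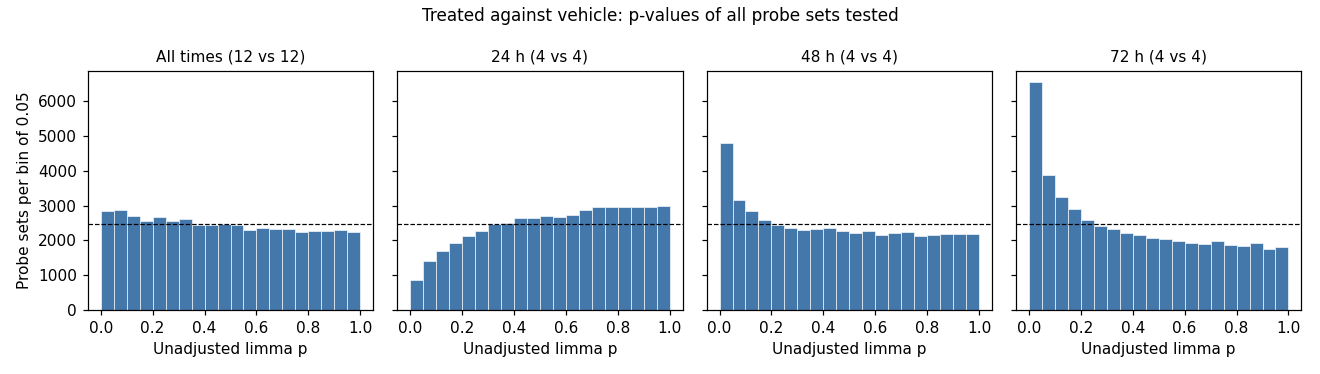
Number of probe sets (y axis) in each bin of 0.05 of the unadjusted limma p (x axis) for treated against vehicle arrays over all times and at each time, with the dashed line at an even spread over bins. The lowest bin holds 2840 probe sets over all times, 874 at 24 h, 4805 at 48 h and 6551 at 72 h.

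At 48 h, 53 probe sets passed the threshold (0.108% of those tested), with 31 higher in treated cells (0.0629%) and 22 lower (0.0446%). The rises covered 19 genes and the falls 15, besides 4 probe sets that the annotation assigns to several genes and 1 without a gene. Among the genes that rose were DDIT3, ATF3, CHAC1, SESN2, DDIT4, SLC3A2, SLC38A2 and MARS1. The order by function in which genes are described was made after the calls had been seen and was not tested. Changes were small, with a median absolute difference of 0.38 on the log2 scale, and 5 of the 53 exceeded 1.5-fold. The call is tied to the block: with time as the only other term in the fit, limma called 0 at 48 h, with 1772 probe sets at an unadjusted p under 0.05. The genes named below for 48 and 72 h were taken from these calls and lowest p-values after they had been seen, as the rule for names rests on the mean over times. On either side of the threshold lay AKAP13 (0.22) and DNAJA1 (-0.33) at an adjusted limma p of 0.0477, and INTS7 (-0.19) and COX19 (0.28) at 0.0528 and 0.0534.

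Promoter sequence is shown here for 3 of the rising genes because ATF4 and its partners bind a composite element spelled TGATGNAA, which was chosen for the search after the calls had been seen. In the RefSeq windows (GRCh38.p14, 250 bases before to 50 after each gene's start) the element was found on either strand in 7 of the 17 rising genes that have a window (41.2%): CHAC1, ATF3, JDP2, MARS1, SLC3A2, IFRD1 and AKAP13. It was found in 4.46% of all 27305 genes. Of the falling genes only 9 have a window, too few to set against that share, and 0 held it. Some genes have several windows, and counted by window the shares were 22.6% of 31 for the rising genes and 3.62% of 35116 for all. A second element, the endoplasmic reticulum stress element (ERSE), was searched in the same windows. It was found in 0 of the 17 rising genes and in 0.0916% of all, a share too low for 17 genes to be set against. The capitals below mark the TGATGNAA match within the 250 bases upstream of each gene's start, on the gene's strand. CHAC1 lies at chr15:40953221-40953470 (+), ATF3 at chr1:212565157-212565406 (+) and JDP2 at chr14:75427772-75428021 (+).
CHAC1: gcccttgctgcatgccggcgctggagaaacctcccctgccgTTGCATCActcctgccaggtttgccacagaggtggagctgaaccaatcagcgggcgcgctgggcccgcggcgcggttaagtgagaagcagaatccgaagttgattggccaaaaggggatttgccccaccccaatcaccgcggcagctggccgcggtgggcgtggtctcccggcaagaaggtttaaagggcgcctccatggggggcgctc
ATF3: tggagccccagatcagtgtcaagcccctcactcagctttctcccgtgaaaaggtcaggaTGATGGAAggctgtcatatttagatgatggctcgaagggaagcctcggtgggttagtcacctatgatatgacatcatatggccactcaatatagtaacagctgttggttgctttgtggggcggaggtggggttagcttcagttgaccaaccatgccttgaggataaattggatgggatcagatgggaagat
JDP2: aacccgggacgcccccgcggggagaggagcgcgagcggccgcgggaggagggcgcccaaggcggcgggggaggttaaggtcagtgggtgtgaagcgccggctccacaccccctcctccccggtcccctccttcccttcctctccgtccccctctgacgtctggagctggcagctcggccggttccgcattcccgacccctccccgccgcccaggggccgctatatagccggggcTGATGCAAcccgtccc
The match begins 209 bases before the start of CHAC1, where it is read on the opposite strand, 191 before that of ATF3 and 16 before that of JDP2. A match is a description of these letters only, and binding was not measured.

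CHAC1, a glutathione-degrading enzyme induced by ATF4, rose by 0.38 ± 0.06 (log2, SE; 1.30-fold, adjusted p = 0.0162 in limma). The vehicle arrays at 48 h read 8.44 and 8.27 (VEGF vehicle, replicates 1 and 2) and 8.46 and 8.11 (PDGF vehicle). The treated arrays read 8.82 and 8.53 (VEGF) and 8.71 and 8.74 (PDGF). Every treated array was above every vehicle array, and the difference was 0.31 on the first hybridisation day and 0.44 on the second. DDIT3, which encodes the transcription factor CHOP, rose in both of its probe sets, by 0.60 ± 0.09 (1.52-fold) and 0.56 ± 0.09. In the first of these, vehicle arrays read 7.48, 7.84, 7.66 and 7.50 and treated arrays 8.39, 8.06, 7.88 and 8.56, in the same order. These groups did not overlap either.

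ATF3, a transcription factor of the ATF family, rose by 0.62 ± 0.12 in 1 of its probe sets, from 8.17, 7.49, 8.44 and 7.28 on vehicle arrays to 9.29, 7.77, 8.75 and 8.07 on treated arrays. Its groups overlapped because replicate 1 lay above replicate 2 in both, and within each day the treated arrays were higher, by 0.71 and 0.54. JDP2, a related repressor of the AP-1 family, rose by 0.31 and NFIL3, another basic leucine zipper factor, by 0.34. FOSL2, an AP-1 subunit, rose by 0.24.

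DDIT4, which encodes REDD1, an inhibitor of the growth kinase mTORC1 that stress induces, had the largest change of all probe sets at 48 h, 1.11 ± 0.18 (2.17-fold, 95% interval 0.75 to 1.48 on the log2 scale). Its vehicle arrays read 10.66, 10.18, 10.66 and 9.57 and its treated arrays 11.65, 10.92, 11.22 and 11.73. The groups did not overlap. SESN2, a leucine sensor that likewise restrains mTORC1, rose in both of its probe sets, by 0.70 ± 0.12 and 0.50 ± 0.09. In the first, vehicle arrays read 8.74, 8.44, 8.84 and 8.11 and treated arrays 9.76, 8.60, 9.28 and 9.30, so that 1 VEGF array lay within the vehicle range.

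SLC3A2, the heavy chain that carries the amino acid exchangers of the plasma membrane, rose in 6 probe sets, by 0.48 to 0.54. In the probe set with the largest rise, vehicle arrays read 10.87, 10.41, 10.83 and 10.30 and treated arrays 11.77, 10.61, 11.37 and 10.82, so that the ranges overlapped while each day's treated arrays exceeded that day's vehicles. SLC38A2, the neutral amino acid transporter SNAT2, rose by 0.42 and 0.34 in 2 probe sets, and MARS1, the cytosolic methionyl-tRNA synthetase, by 0.36.

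ERRFI1, a feedback inhibitor of the EGF receptor, rose by 0.67 ± 0.13, from 11.51, 10.76, 11.66 and 10.54 on vehicle arrays to 12.67, 10.86, 12.18 and 11.41 on treated arrays, with overlapping ranges. TSC22D3, the glucocorticoid-induced leucine zipper protein, rose in 2 probe sets, by 0.54 ± 0.09 and 0.45 ± 0.08, and GADD45A, a growth arrest gene, by 0.37 ± 0.07. The GADD45A groups did not overlap, with vehicle arrays at 10.15, 10.19, 10.30 and 10.05 and treated arrays at 10.71, 10.40, 10.44 and 10.61. IFRD1, a transcriptional co-regulator, rose by 0.51, G0S2 by 0.42, RBMS2, an RNA-binding protein, by 0.26 in both called probe sets, and AKAP13, an anchoring protein, by 0.22.

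VEGFA, the gene of one of the factors applied, rose in 2 of its 10 probe sets, by 0.42 ± 0.08 and 0.28 ± 0.06. In the first, vehicle arrays read 8.07, 7.66, 8.04 and 7.51 and treated arrays 8.79, 7.66, 8.44 and 8.07, and the arrays given VEGF and given PDGF were both higher on average, by 0.36 and 0.49 against their own vehicles. The difference in a further probe set, 0.49 ± 0.11, had an adjusted limma p of 0.0604, and the values of all 10 were positive, from 0.06 upward.

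**Figure D2:**
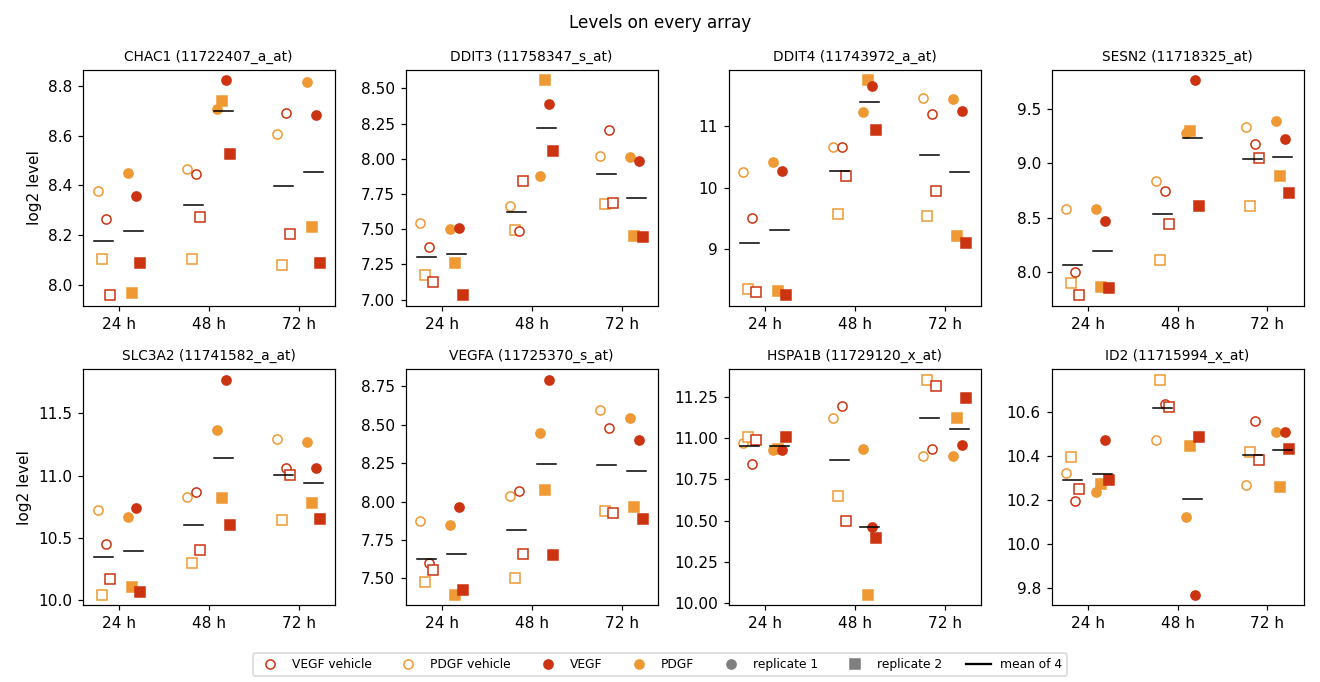
Log2 level (y axis, a separate scale for each panel) of 8 probe sets on each of the 24 arrays at 24, 48 and 72 h, with open symbols for vehicle, filled symbols for treated arrays, circles for replicate 1, squares for replicate 2 and a line at the mean of 4 arrays. At 48 h all 4 treated arrays lie above all 4 vehicle arrays for CHAC1, DDIT3 and DDIT4, whereas the ranges overlap for SESN2, SLC3A2, VEGFA, HSPA1B and ID2.

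Of the 22 probe sets that fell at 48 h, 1 was called when each factor was paired to its own vehicle (MCM10), among 10 calls in all, and 1 with the RNA integrity number as a covariate (RBIS), among 17. Limma's trend and robust settings gave 6 calls, CHAC1, NFIL3, GADD45A and RBMS2 on the higher side and NFIA and TFF3 on the lower. The rises of DDIT3, DDIT4, SESN2, SLC3A2 and ATF3 were not among those 6. ZC3HAV1L, a paralogue of a zinc finger antiviral protein, fell by 0.48 ± 0.09, with vehicle arrays at 9.12, 9.03, 9.19 and 9.10 and treated arrays at 8.28, 8.73, 8.66 and 8.84, which do not overlap. HSPA1B, an inducible HSP70 chaperone, fell by 0.41 ± 0.07, from 11.20, 10.50, 11.13 and 10.65 to 10.46, 10.40, 10.93 and 10.05, again with overlap. This gene has a near-identical copy, HSPA1A, and 2 probe sets shared by both fell by 0.42 and 0.41, so the signal cannot be divided between them. DNAJA1, an HSP40 cochaperone, fell by 0.33.

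ID2, a helix-loop-helix inhibitor of differentiation, fell in 2 probe sets, by 0.41 ± 0.08 and 0.32 ± 0.07. In the first, vehicle arrays read 10.63, 10.62, 10.47 and 10.75 and treated arrays 9.77, 10.48, 10.12 and 10.45, where 1 treated array reached the lowest vehicle array. HES6, a related regulator of Notch signalling, fell by 0.40 ± 0.08, by 0.70 on the first day and 0.10 on the second. TFF3 fell by 0.32 ± 0.06, with vehicle arrays at 8.84, 8.73, 8.82 and 8.81 all above treated arrays at 8.35, 8.65, 8.29 and 8.63. NFIA, a nuclear factor I protein, fell by 0.31, and ZFP36L2, an RNA decay factor, in 3 probe sets by 0.21 to 0.27.

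MCM10, which helps to start DNA replication, fell by 0.31 and 0.23 in 2 probe sets. SRSF2, a splicing factor, fell by 0.38, SAR1A, a GTPase of endoplasmic reticulum export, by 0.34, SC5D, an enzyme of cholesterol synthesis, by 0.24, URB2, a ribosome biogenesis gene, by 0.28 and RBIS by 0.21. A probe set annotated to IGKC, an immunoglobulin light chain that epithelial cells are not known for, fell by 0.35 at a low level (mean of 6.93 on vehicle and 6.58 on treated arrays). A probe set shared by FABP5 and its pseudogene FABP5P2 fell by 0.42.

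The 48 h differences had the same sign in both factors and on both days. All 53 probe sets differed in the same direction for VEGF against its vehicle and for PDGF against its vehicle, with median absolute differences of 0.38 and 0.35. The difference between both responses was called for 0 of them, and none had an unadjusted p under 0.05 in limma, against 1.21% of all probe sets. Between the vehicles themselves at 48 h the test called 0 of all probe sets, with 0.588% at an unadjusted p under 0.05, and among the 53 the median absolute vehicle difference was 0.04. Of the 53, 16 had treated and vehicle arrays that did not overlap, where 1.37% of all probe sets had every treated array above and 1.51% every treated array below. Selection at 48 h used these same arrays, so agreement in sign between factors and days is a description of the calls and not a separate test. The fit behind the calls had no term for the factor, so its spread held the differences between factors and between vehicles. Calls therefore favour probe sets in which those differences are small, and their small size among the 53 is likewise no separate test.

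**Figure D3:**
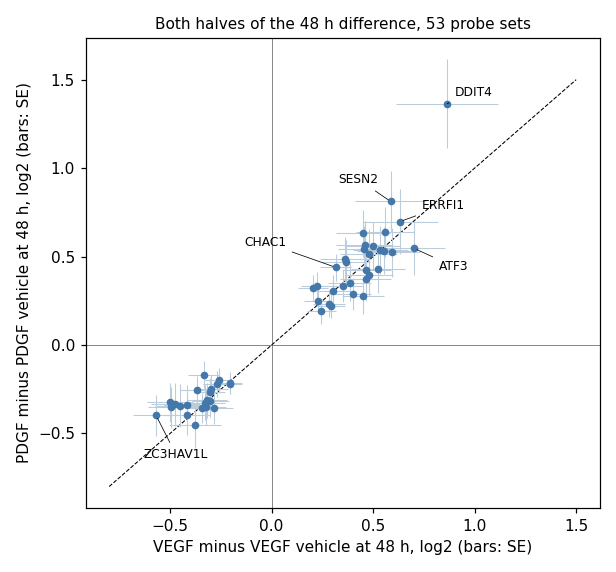
Difference from the own vehicle at 48 h (log2) for VEGF (x axis) and PDGF (y axis) in the 53 called probe sets, with bars for the standard error and a dashed line of equality. All points lie in the quadrants where both factors share a sign, with DDIT4 the farthest at 0.87 for VEGF and 1.36 for PDGF.

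Size differed between days. Of the 53, 48 had the larger absolute difference in replicate 1, with a median of 0.51 against 0.24 in replicate 2. Across all probe sets the correlation of the treated minus vehicle difference between the days was 0.04 over all times, and by time it was -0.20 (24 h), 0.11 (48 h) and 0.35 (72 h); probe sets of an array share its hybridisation, so these are descriptions. Fitted alone, the 12 arrays of replicate 1 gave 794 calls at 48 h, which included 46 of the 53, and the 12 of replicate 2 gave 1, DDIT4 (1.45 ± 0.20, adjusted p = 0.0457 in limma). All 53 had an unadjusted p under 0.05 in the same direction in replicate 1 alone, and 47 did in replicate 2 alone. Over all probe sets, 6431 in replicate 1 and 1899 in replicate 2 had such a p in either direction. The 53 were selected on these same arrays, so their counts within each day are no separate test.

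The count at 48 h depended on single arrays, as the plot of calls with 1 array left out shows. Of the 48 h arrays, omission of either replicate 1 array of the VEGF arm (vehicle or VEGF) or either replicate 2 array of the PDGF arm (vehicle or PDGF) took it to 0. It was 3 without the PDGF vehicle's replicate 1 and 29 without that of PDGF. It rose to 129 without the second replicate of VEGF vehicle, and to 216 without that of VEGF, at 48 h. Arrays of other times enter through the shared spread: the count was 27 without replicate 2 of PDGF at 24 h or of VEGF at 72 h, and it was 88 without the VEGF vehicle's replicate 2 at 72 h. Among the 53, no difference changed sign under any of these.

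**Figure D4:**
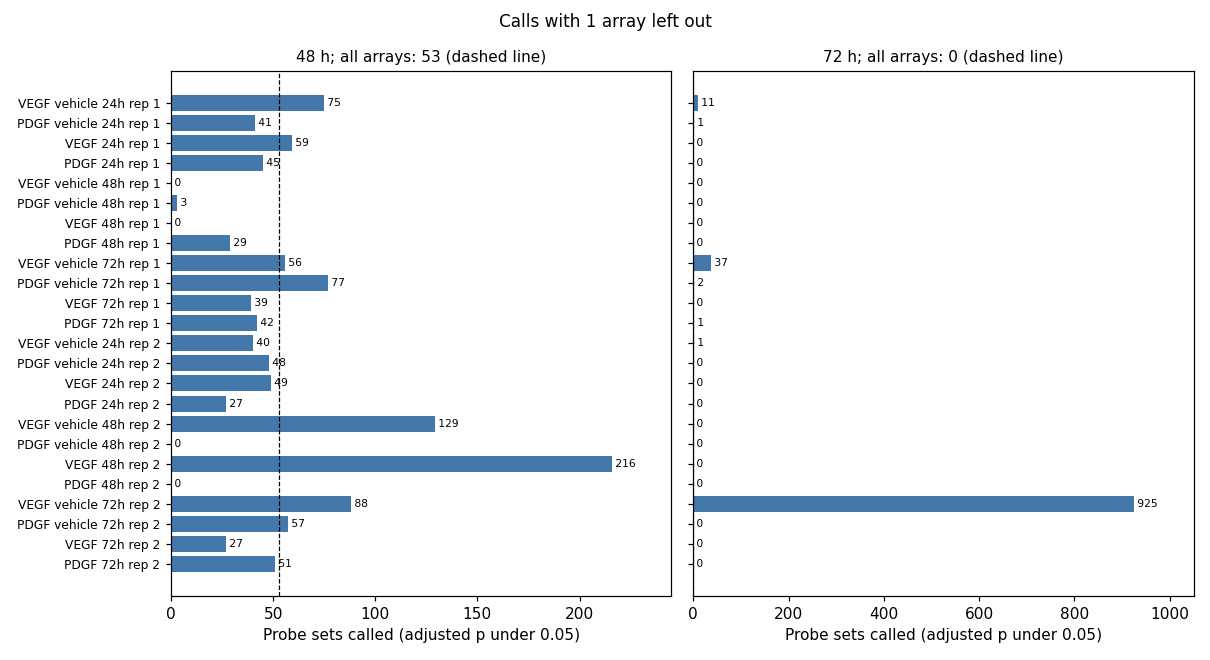
Number of probe sets called (x axis, a separate scale for each panel) at 48 h and 72 h when 1 array (y axis) is left out, with a dashed line at the count with all arrays. The 48 h count runs from 0 to 216 around 53, and the 72 h count is 925 without the VEGF vehicle's replicate 2 of 72 h and at most 37 without any other array.

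The calls at 48 h were not calls at the other times. At 24 h 0 and at 72 h 0 of the 53 were called, and the median over the 31 rises went from 0.05 at 24 h through 0.44 to -0.09 at 72 h. For the 22 falls the medians were 0.00, -0.32 and -0.04 in the same order. The test of the 72 h response against the 48 h response called 5 probe sets, all lower at 72 h (0.0101%, 6743 or 13.7% at an unadjusted limma p under 0.05): both probe sets of DDIT3 at -0.77 ± 0.13 and -0.73 ± 0.13, RBMS2 at -0.41 ± 0.06, MYOF, a membrane repair protein, at -0.52 ± 0.08, and an unnamed probe set at -0.68 ± 0.11. The test of the 48 h against the 24 h response called 0, with 2713 probe sets (5.5%) at an unadjusted p under 0.05, that of 72 h against 24 h called 0 with 3793 (7.69%), and the joint limma test of any of the 3 times called 0 with 4930 (10%, lowest adjusted p of 0.0859). Among the 53, a change between 24 and 48 h was thus called for none and one between 48 and 72 h for 4.

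In the vehicle arrays the rising genes also changed with time in culture. The median vehicle change of the 31 rising probe sets was 0.23 from 24 to 48 h and 0.60 from 24 to 72 h, while the 22 falling ones had medians of -0.07 and -0.02. No median over all probe sets is set beside these values. The calls were also selected on the same 48 h vehicle arrays, so the medians are descriptions only. DDIT4 is an example, at mean vehicle levels that ran from 9.11 at 24 h through 10.27 at 48 h to 10.53 at 72 h. Each array's position along the vehicle time course, scaled so that vehicles average 0 at 24 h and 1 at 72 h, was 0.49 ± 0.21 on the 4 vehicle and 0.55 ± 0.28 (SD) on the 4 treated arrays at 48 h. These SDs span both days, which stood apart at 48 h. In replicate 1 the vehicle arrays read 0.66 and 0.68 and the treated arrays 0.79 and 0.78, a mean difference of 0.110. In replicate 2 they read 0.33 and 0.28 against 0.25 and 0.37, a mean difference of 0.007. Over all blocks treated arrays stood 0.02 farther along (exact permutation test within blocks, two-sided p = 0.311, adjusted over 3 such measures 0.466), higher in 4 of 6 blocks. Over all times in replicate 1 alone the difference was 0.07 (exact permutation p = 0.00926) and in replicate 2 alone -0.03 (exact permutation p = 0.185). Its part in the 48 h calls was not tested.

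RNA quality was measured in 2 ways. The RNA integrity number averaged 9.58 ± 0.22 in vehicle and 9.41 ± 0.32 in treated samples (SD, n = 12 each), a difference of -0.17 with an exact permutation p of 0.110 (two-sided, adjusted 0.329), lower in the treated sample in 8 of 12 pairs. At 48 h the numbers were 9.6 to 9.8 for vehicle and 9.4 to 9.8 for treated samples, and with the integrity number as a covariate limma called 17 probe sets at 48 h, 16 higher and 1 lower, of which 16 were among the 53. The lower one was RBIS, so the other falls described above were not called in that fit. The 3' minus 5' difference of the control probe sets was 0.72 ± 0.08 in vehicle and 0.70 ± 0.07 in treated samples, with an exact permutation p of 0.658.

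The gene lists, which were chosen with earlier results of these data known, place the calls. At 48 h the unfolded protein response list had 2 of 20 probe sets called, both of DDIT3, and a median difference of 0.23 against 0.00 over all probe sets. Of the 20, 13 had an unadjusted p under 0.05 on the higher side, against 4.64% of all probe sets, and 1 on the lower side, against 5.11%. TRIB3, a pseudokinase target of ATF4 and DDIT3, differed by 0.56 ± 0.15 (adjusted p = 0.174 in limma) and 0.36 ± 0.10, ASNS, asparagine synthetase, by 0.24 to 0.32, ATF4 itself by 0.27 ± 0.06 (adjusted p = 0.107) and HERPUD1, of endoplasmic reticulum degradation, by 0.08 to 0.25. The 6 probe sets of HSPA5, the chaperone BiP of the endoplasmic reticulum, had values of -0.15 to -0.04, and XBP1 of 0.15. The values of HSPA5 lay below 0 and those of the other list genes above it, and of the whole list DDIT3 alone was called.

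The lists tied to the growth factors themselves held few calls. The VEGF pathway list had 2 of 41 probe sets called at 48 h, both VEGFA (0.0629% of all probe sets were called higher), and none at 24 or 72 h. At an unadjusted p under 0.05 in limma, 8 of the 41 were higher at 48 h, against 4.64% of all, and 1 was lower, against 5.11%. Over all times 33 of the 41, which cover 9 genes, were positive, with a median of 0.03 against 0.00 over all probe sets. At that threshold 7 were higher, against 2.7% of all. The receptors FLT1, KDR and FLT4 were called in none of their probe sets. The PDGF pathway list had 0 of 21 called at any time, with 0 at an unadjusted p under 0.05 at 48 h (9.75% of all probe sets in either direction), and its median at 48 h was 0.02. Immediate early genes had 1 of 50 called at 48 h, ATF3, and 0 at 24 and 72 h, and EGR1, the early response factor, had a 48 h value of 0.30 ± 0.26. MAPK feedback genes had 0 of 40 called at each time. At 48 h 11 of these 40 had an unadjusted p under 0.05 on the higher side, against 4.64% of all, among them 4 probe sets of PHLDA1, with 0.40 ± 0.09 in the one with the largest value (adjusted p = 0.0956 in limma), and 4 on the lower side, against 5.11% of all, among them 1 probe set of SPRED1 at -0.24. Positive differences were found at 24 h in 40 of 50 immediate early and 35 of 40 feedback probe sets, with medians of 0.06 and 0.03 against 0.00 over all, but 3 and 1 reached an unadjusted p under 0.05 on the higher side, where 0.951% of all probe sets did (0.822% on the lower side). These probe sets cover 15 and 14 genes, so the counts by sign are not of separate genes.

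Other lists had 0 calls at each time: proliferation (47 probe sets), hypoxia and glycolysis (39), EMT (26), interferon (17), NF-kB targets (18) and the 3 marker lists. Proliferation probe sets had 9 of 47 at an unadjusted p under 0.05 on the lower side at 48 h, against 5.11% of all probe sets, of which 5 belonged to MCM4, a subunit of the replicative helicase, at -0.36 to -0.21, and 1 to CCNE1, cyclin E1, at -0.22 ± 0.06. Over all times 44 of the 47 were negative, with a median of -0.04 against 0.00 over all probe sets, and 3 had an unadjusted p under 0.05 on the lower side, against 3.06% of all. The 47 probe sets cover 18 genes, so the count by sign is not one of separate genes. In bulk RNA fewer cells in cycle and less of these RNAs per cell cannot be told apart. Interferon probe sets, 17 for 8 genes, were negative in 14 over all times, with a median of -0.01 against 0.00 over all probe sets. Of the 17, 5 had an unadjusted p under 0.05, against 3.06% of all on that side. These were IFIT1 (-0.08), IFIT2 (-0.08) and IFI44 in 3 probe sets (-0.11 to -0.07). NF-kB targets were positive in 11 and negative in 7 of 18 at 48 h.

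At 72 h no probe set was called (0%, lowest adjusted limma p of 0.0549), although 49 had an adjusted p under 0.1, and 2605 probe sets were higher (5.28%) and 3946 lower (8.01%) at an unadjusted p under 0.05. The lowest p-values belonged to VPS13A, a lipid transfer protein at membrane contacts (-0.31 ± 0.05), KIF1B, a kinesin (-0.23 ± 0.04), KNL1, a kinetochore scaffold (-0.43 ± 0.07), ASPM, a spindle pole protein (-0.32 ± 0.06), and NUCB2, a calcium-binding protein (0.27 ± 0.05). For KNL1 the vehicle arrays read 8.52 and 8.05 (VEGF vehicle) and 8.32 and 8.23 (PDGF vehicle) and the treated arrays 8.02 and 7.68 (VEGF) and 7.89 and 7.84 (PDGF). These groups did not overlap. TTBK2, a kinase of cilium formation, had -0.30, and on the upper side HLA-DPA1, HTRA1, GPR107 and SLC6A19 had 0.23, 0.20, 0.20 and 0.29. All treated arrays lay above all vehicle arrays for 2.76% of probe sets and below for 1.51%.

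MKI67, the proliferation antigen Ki-67, had values of -0.31 to -0.14 over 6 probe sets, of which -0.27 ± 0.05 had the lowest adjusted limma p, 0.0667. TOP2A, topoisomerase II alpha, had -0.28 ± 0.06 in one probe set (adjusted p = 0.0752). For ASPM the vehicle arrays read 9.88, 9.43, 9.96 and 9.47 and the treated arrays 9.66, 9.07, 9.67 and 9.06, so that the ranges overlapped while on each day the treated arrays were lower. Over the whole proliferation list the picture was narrower, with 8 of 47 at an unadjusted p under 0.05 on the lower side (8.01% of all probe sets), 1 on the higher (5.28% of all) and a median of -0.03 against 0.00 over all. JUN had -0.53 to -0.35 over 4 probe sets with adjusted p-values of 0.121 and above, and 10 of 50 immediate early probe sets had an unadjusted p under 0.05 on the lower side, against the same 8.01% of all.

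The count at 72 h turned on 1 vehicle array, singled out here because its omission gave more calls than that of any other array. Nothing in the labels marks it as failed, and its RNA integrity number was 9.6. The SD of its difference from the mean of the other arrays in its block was 0.105, against 0.121 for the PDGF vehicle there. With the VEGF vehicle's replicate 2 of 72 h left out, limma called 925 probe sets, 77 higher and 848 lower. In that fit 4 of 47 proliferation probe sets were called lower (8.51%, against 1.72% of all). Only 2 of the MKI67 probe sets were looked up there, at -0.34 ± 0.08 and -0.27 ± 0.06 (adjusted limma p of 0.0175 and 0.0128). The TOP2A value was -0.34 ± 0.06 (adjusted limma p of 0.00273) and that of KNL1 -0.47 ± 0.08 (0.00258). The JUN probe set looked up there, at -0.32 ± 0.10, was not called. All 925 had the same sign with every array included, but both fits share all the other arrays, so this is no separate test. Left out in its place, the other array of that group gave 37 calls, the replicate 1 arrays of VEGF vehicle at 24 h and of PDGF vehicle at 72 h gave 11 and 2, and 1 call each came when the array omitted was the PDGF vehicle's replicate 1 or the VEGF vehicle's replicate 2 of 24 h or replicate 1 of PDGF at 72 h. Replicate 1 alone gave 81 calls, 79 of them lower, and replicate 2 alone gave 0, with 5113 probe sets at an unadjusted p under 0.05.

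The vehicles of 72 h differed from each other. The VEGF vehicle stood against the PDGF vehicle with 20 probe sets called (0.0406%, 9.23% at an unadjusted p under 0.05), 8 higher and 12 lower. Higher in the VEGF vehicle were CCN2, a matrix-associated signalling protein (0.65 and 0.81), MCL1, an antiapoptotic protein (0.65), DUSP1 (0.45 and 1.08) and DUSP6 (0.54), both MAP kinase phosphatases. Lower were RNF43, a ubiquitin ligase that restrains WNT receptors (-0.68), and SRRM2, a splicing scaffold (-0.80 and -0.54). PDGF against its own vehicle at 72 h had 4 probe sets called, all lower (0.00811%, 9.54% at an unadjusted p under 0.05): RNF43 at -0.73, SRRM2 at -1.04 and -0.87, and an unnamed one at -0.39. VEGF against its own vehicle at 72 h had 0 called, with 2919 (5.92%) at an unadjusted limma p under 0.05, and the difference between both responses had 0, with 1865 (3.78%). The 4 calls therefore share the PDGF vehicle arrays with the vehicle comparison, and the pooled difference at 72 h averages over both vehicles.

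Genes of longer span tended to lower values at 72 h. Across 44961 probe sets with a gene in RefSeq, the Spearman correlation of the 72 h difference with the gene's genomic length was -0.09, at -0.11 in replicate 1 and -0.05 in replicate 2. The median length was 50.6 kb among probe sets lower at an unadjusted p under 0.05, 27.8 kb among those higher and 33.7 kb among all. At 48 h the correlation was 0.00, but the days differed in sign, at 0.06 in replicate 1 and -0.09 in replicate 2. At 24 h it was 0.02, at 0.04 in replicate 1 and -0.02 in replicate 2. A single day at 48 h thus had a value of the size seen at 72 h. Probe sets are not independent replicates, and these values carry no test.

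The response to VEGF and that to PDGF were not told apart over all times. The difference between both responses called 0 probe sets in limma, where 1144 (2.32%) had an unadjusted p under 0.05, and the VEGF arm with its vehicle against the PDGF arm with its vehicle called 0, with 1649 (3.35%). Taken alone over all times, VEGF against its vehicle called 0 with 1819 (3.69%) and PDGF against its vehicle 0 with 1856 (3.77%). At 48 h each factor alone called 0 against its own vehicle, with 3077 probe sets (6.24%) for VEGF and 1621 (3.29%) for PDGF at an unadjusted p under 0.05. Over all times, the interval of the difference between both responses lay within 1.1-fold of no difference for 30.1% of probe sets. At 48 h it did so for 0%. Intervals within 1.5-fold made up 99.9% over all times and 99.4% at 48 h. Only 5 of the 53 calls at 48 h exceeded 1.5-fold. An interval within the wider limit can therefore still hold a difference between factors as large as most of the 53 changes.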

How the data were processed

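The authors deposited log2 values for each probe set. Per the submitters' processing notes, these come from RMA, run in R 3.0.1. RMA equalises the arrays' distributions, so a change in total RNA cannot be seen. The 2 deposited tables shared 49395 entries with identical values. Entries for 102 manufacturer and 100 ERCC controls were set aside, and 49293 probe sets were tested with no filter. Gene symbols came from the platform annotation, and 44961 probe sets had a gene in RefSeq (GRCh38.p14).

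Tests used limma 3.58.1 in R 4.3.3 (lmFit, eBayes), 2-sided, with Benjamini-Hochberg adjustment over all 49293 probe sets and a threshold of 0.05. Each combination of time and replicate number was a fixed block. The overall fit had 17 residual degrees of freedom, and the fit with a treated term per time 15. Replicate numbers coincide with the hybridisation day in the labels, and deviations from group means correlated between arrays of one number in each of the 66 group pairs, with r from 0.257 to 0.80. Single measures were compared by exact permutation within blocks (46656 assignments). The searches for TGATGNAA and ERSE covered both strands. The scripts were tested on simulated data. The number of arrays limits the precision.

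The members and gene lists were chosen with earlier results of these data known. The rule for named genes was up to 15 rises and 15 falls called over all times and, where fewer pass, the 5 with the lowest p in each direction, plus the list members. Alternatives were other block structures, omission of arrays, days, times or blocks, a filter on the dimmest 40%, other normalisations, limma's trend, robust and array weight settings, the RNA integrity number as a covariate, and, added after the data were seen, fits on one time alone and each factor against both vehicles.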

Additional observations from a re-analysis of the deposited data

Results flagged for a closer look

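Of 336 groups of 4 arrays examined over 56 values, 10 held an array that stood apart from the other three by Dixon's criterion, and chance gives about 1 in 20. At 48 h, replicate 2 of VEGF had a 3' minus 5' control difference of 0.83, against 0.63 to 0.643 on the other treated arrays. Among treated arrays, PDGF replicate 1 at 48 h read 6.60 for PRKAA2 (others 6.47 to 6.48), VEGF replicate 2 at 24 h read 11.01 for HSPA1B (others 10.93 to 10.94), VEGF replicate 1 at 72 h read 7.85 for MCM10 (others 7.57 to 7.61), PDGF replicate 1 at 72 h read 7.59 for SLC6A19 (others 7.74 to 7.75), and PDGF replicate 1 at 24 h read 6.80 for SHBG (others 6.69 to 6.70). Among vehicle arrays, the PDGF vehicle replicate 2 at 48 h read 8.75 for TSC22D3 (others 9.08 to 9.14), the VEGF vehicle replicate 1 at 48 h read 7.17 for GPR107 (others 7.28 to 7.30), the VEGF vehicle replicate 1 at 72 h read 8.25 for KIF1B (others 8.33 to 8.35), and the VEGF vehicle replicate 1 at 24 h read 6.66 for SHBG (others 6.53 to 6.55).

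The response at 72 h differed from that at 48 h in 5 probe sets by limma, all lower at 72 h: both of DDIT3, and those of RBMS2, MYOF and an unnamed transcript.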

How the results depend on the processing

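The 48 h count of 53 was 0 without the replicate block, 0 with the block additive to time, 0 with it random and 10 (9 higher, 1 lower) with each factor paired to its own vehicle (12 pairs). It was also 0 without the 24 h arrays, on the 48 h arrays only (5573 at an unadjusted limma p under 0.05), and for VEGF alone or PDGF alone against both vehicles. Median centring gave 29, quantile normalisation 94, array weights 106, trend with robust settings 6 and the RNA integrity covariate 17 (16 higher, 1 lower). At 72 h the count of 0 became 4 with 12 pairs, 1 without the 24 h arrays, 25 with trend and robust settings and 35 with array weights. For 72 h against 24 h trend and robust settings gave 1 and array weights 2, for any of 3 times array weights gave 9, and over all times the RNA integrity covariate gave 1. Leaving out 1 array or the arrays of 1 replicate number gave 0 to 794 calls at 48 h, 0 to 925 at 72 h, 0 to 17 for 72 h against 24 h (the 17 without the VEGF vehicle's replicate 2 at 72 h), 0 to 358 for any of 3 times (the 358 without replicate 2, and 260 without that vehicle array) and 0 to 2 over all times. The 24 h count and those of VEGF against PDGF stayed at 0 under every alternative run. The position along the time course ranged from -0.0329 to 0.0719 without 1 array or 1 replicate number and was 0.0356 (past its threshold) with the axis from all arrays of the other number. The 3' minus 5' difference turned to 0.00967 with GAPDH alone and ranged from -0.0314 to 0.00673 without 1 array or number. Single values under the alternatives were kept for 61 probe sets at 48 h, 14 at 72 h and 10 over all times, not for every probe set given above. No difference of those that were kept changed sign under any alternative. At 48 h 1018 of their values under alternatives lost the call, over 53 probe sets. Apart from what each omission or pairing removes by construction, the cause of these changes was not tested.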

Other observations

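A few calls arose outside the main comparisons, each chosen after its values were seen. Over all times, the arrays of replicate 2 alone gave 2 calls, NF1, the Ras inhibitor neurofibromin (-0.50 ± 0.06, adjusted p = 0.0112 in limma), and ITCH, a ubiquitin ligase (-0.34 ± 0.05, adjusted p = 0.0454 in limma), where replicate 1 alone gave 0 with 1538 probe sets at an unadjusted p under 0.05. With the RNA integrity number as a covariate, RPL37, a ribosomal protein, was the single call over all times (-0.19 ± 0.03, adjusted p = 0.0445 in limma). In the same fit at 48 h, PMAIP1, the apoptosis gene NOXA, was among the 17 calls (0.38 ± 0.07, adjusted p = 0.0484 in limma).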
